A study of Mus musculus with 9 samples.

Results

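The 40 genes described here make, activate, burn and store fatty acids, and their transcripts were measured by RNA-seq in activated mouse CD4+ T cells given the natural flavone acacetin. They were chosen as a list of symbols in 7 subgroups, namely fatty acid synthesis (4 genes), desaturation and elongation (7), long-chain acyl-CoA synthetases (5), the carnitine shuttle (4), mitochondrial beta oxidation (13), electron transfer from beta oxidation (3), and lipid storage and handling (4). All 40 were among the 25757 entries of the count table and among the 12185 genes that passed the filter on low counts. The 9 libraries came from CD4+ T cells of genotype WT. They were naive cells when taken from the lymph nodes and spleens of untreated animals, and the study used male BALB/c mice. The cells were activated on plates coated with antibodies to CD3 and CD28 and cultured for 3 days with 0, 5 or 10 μM acacetin, 3 libraries at each concentration. Acacetin was dissolved in DMSO, and the study calls 0 μM the vehicle for cultures of this kind. The replicates are labelled as biological, but no label ties them to separate animals, so the p-values measure the spread between these cultures.

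Fatty acid synthesis starts in the cytosol, where ATP citrate lyase makes acetyl-CoA from citrate, acetyl-CoA carboxylase turns it into malonyl-CoA, and fatty acid synthase builds palmitate from both. The product is lengthened and desaturated at the endoplasmic reticulum, joined to coenzyme A by acyl-CoA synthetases, and then built into membranes, stored in lipid droplets or carried into mitochondria by the carnitine shuttle and broken down by beta oxidation. T cells that leave rest build membranes and raise fatty acid synthesis, whereas resting and memory T cells are known for their use of fatty acid oxidation.

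Total counts per library were 19664981 to 24410715. CPM is a gene's counts relative to the total of its library, scaled with TMM factors except for the markers in this paragraph. The 10 T cell markers checked were all over 10 CPM at 0 μM and summed to 4098 to 4273 CPM in the 9 libraries. All 8 adipocyte markers were under 1 CPM in every library, with sums of 0.102 to 0.946 CPM. In the 5 μM replicate 2 library, 10 liver transcripts summed to 28.3 CPM, against at most 2.60 CPM in the other 8 libraries. In the 10 μM replicate 1 library, 10 lung transcripts summed to 114 CPM, against at most 39.3 CPM elsewhere, 6 blood transcripts to 23.1 CPM, against at most 2.09 CPM, and 8 macrophage and monocyte transcripts to 14.3 CPM, against at most 5.03 CPM. Most of the lung sum elsewhere was Ager, with 20.9 to 27.1 CPM at 0 μM and 28.4 to 28.98 CPM at 5 μM. At 10 μM Ager had 41.6, 32.3 and 34.0 CPM. Scgb1a1 and Sftpc had 36.9 and 21.8 CPM in 10 μM replicate 1, against at most 3.56 and 2.50 CPM elsewhere. Of the 7 B cell transcripts, 6 were under 1 CPM in every library. The other was Ighm, the immunoglobulin mu heavy chain, with 139.5 to 147 CPM at 0 μM, 155 to 161 CPM at 5 μM and 157 to 160.4 CPM at 10 μM, so that it was higher in all 6 libraries with acacetin. Its part in the results below was not tested. Counts are given below with and without those 2 libraries where they matter. In bulk RNA, fewer cells of a type and less RNA per cell cannot be told apart.

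Most of the fatty acid genes that changed were lower with acacetin, and most changes were small. At 5 μM, 21 of the 40 genes were lower and 4 higher than at 0 μM, at an adjusted p under 0.05 (edgeR's quasi-likelihood test, Benjamini-Hochberg over all genes tested), where 33.1% of all genes tested passed, 16.8% lower and 16.3% higher. At 10 μM, 23 were lower and 4 higher, where 47.3% of all genes passed, 23.6% lower and 23.8% higher. Both comparisons use the same 3 libraries at 0 μM. The 21 genes lower at 5 μM were lower at 10 μM too, Scd2, Cpt1c, Etfdh and Lpin1 were higher at both, Cpt1a and Decr1 were lower at 10 μM alone, and 13 genes passed at neither concentration. The median log2 fold change of the 40 genes was -0.11 at 5 μM and -0.17 at 10 μM, beside medians of 0.00 over all genes tested at both.

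A change of over 1.5-fold was seen in 4 genes at 5 μM, where 3.38% of all genes passed both thresholds, 1.76% lower and 1.62% higher. Acsl6, Eci1 and Fads2 were lower and Cpt1c higher. At 10 μM, Elovl6 and Plin2 were also lower and Lpin1 also higher by over 1.5-fold, 7 genes in all, where 7.5% of all genes passed both, 3.36% lower and 4.14% higher. The libraries with 5 μM did not overlap those with 0 μM for 27 genes, 22 lower and 5 higher, where this held for 46.4% of all genes tested, and those with 10 μM for 28 genes, 23 lower and 5 higher, where it held for 54.2%. Between 10 and 5 μM, 9 genes passed, 7 lower and 2 higher, where 9% of all genes passed, 4.09% lower and 4.92% higher, and 14 did not overlap, 10 lower and 4 higher, where 25.9% of all genes did not. Of the 40, 0 passed with a change of over 1.5-fold between 10 and 5 μM, by edgeR and in both DESeq2 fits, where 0.345% of all genes did, and 1 (Acsl6) did without 10 μM replicate 2. Without the libraries that held liver or lung transcripts, 23, 26 and 4 genes passed for 5 against 0, 10 against 0 and 10 against 5 μM, where 27.4%, 43.4% and 5.51% of all genes did. Without 10 μM replicate 3 the last count was 3, where 5.84% of all genes passed, and without 5 μM replicate 3 it was 4, where 5% did, so that 3 of the 40 is near the share over all genes. The means of 22 genes fell at each step of concentration, those of 7 rose at each step, and 11 did neither.

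**Figure D1:**
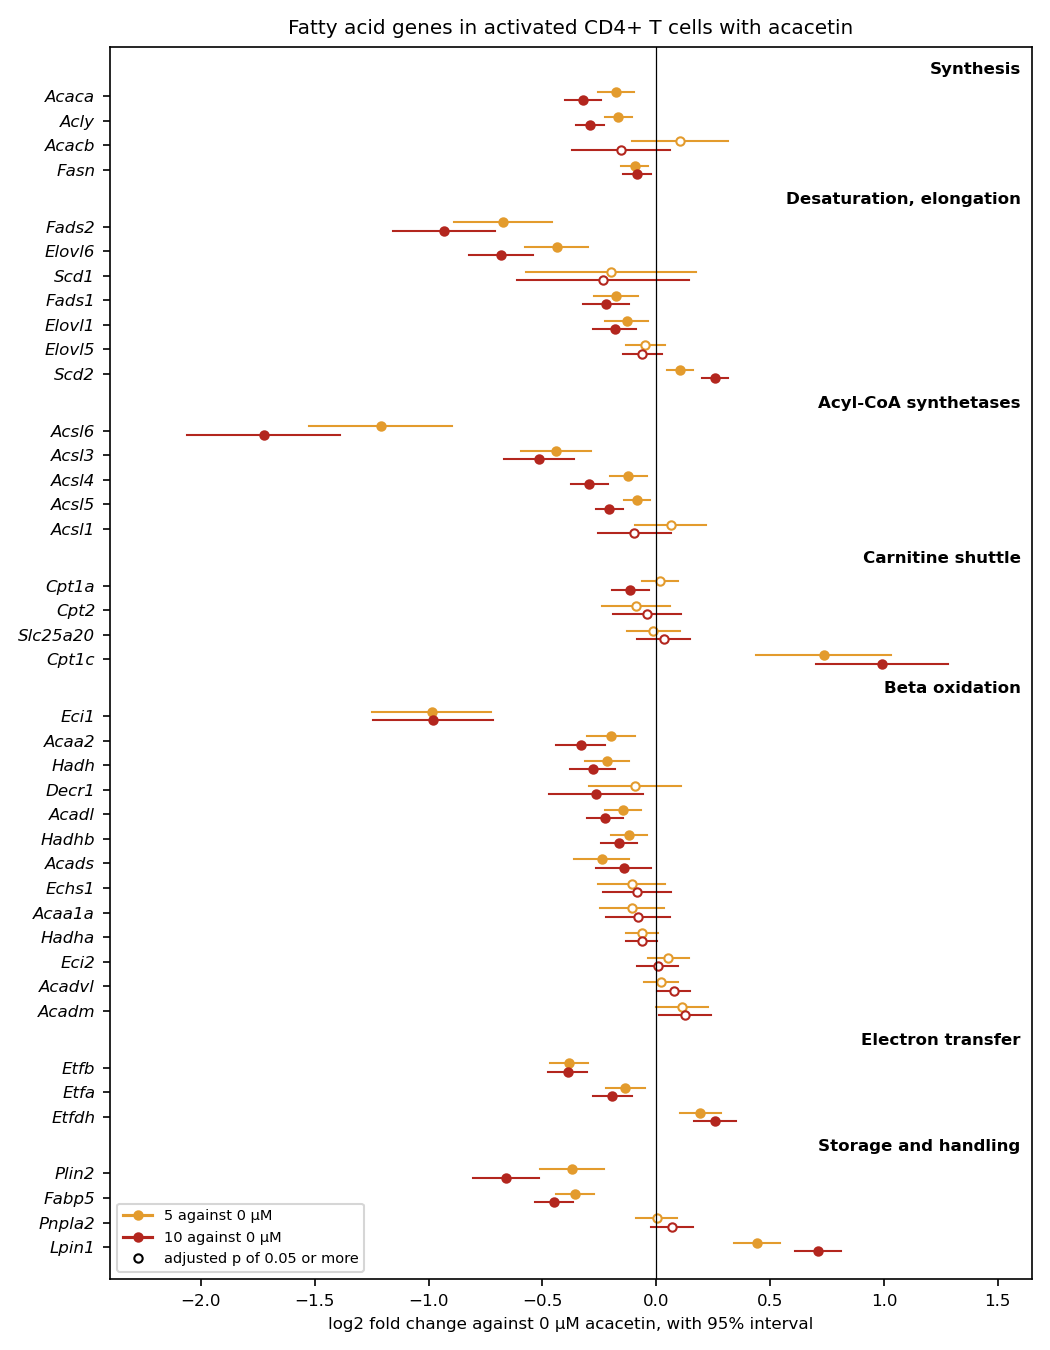
Log2 fold change of each of the 40 genes at 5 μM and at 10 μM acacetin against 0 μM, by subgroup, with 95% intervals from the edgeR fit (filled points, adjusted p under 0.05). Acsl6 lies farthest to the left at -1.72 and Cpt1c farthest to the right at 0.99, both at 10 μM.

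The promoters of the 7 genes that changed by over 1.5-fold at 10 μM are shown here because these genes moved most, in both directions. The counts are per gene and do not show which annotated start site these cells used. Promoter sequences of 250 bases before to 50 after a start site were matched by symbol from RefSeq, build GRCm38.p6, for 34 of the 40 genes (38 promoters). They are written 5′ to 3′ on the strand of the gene, and capitals mark the motifs found on either strand. Of the 3 Acsl6 start sites, the one that holds the ERR element is shown.
Acsl6 (chr11:54303574-54303873, plus strand): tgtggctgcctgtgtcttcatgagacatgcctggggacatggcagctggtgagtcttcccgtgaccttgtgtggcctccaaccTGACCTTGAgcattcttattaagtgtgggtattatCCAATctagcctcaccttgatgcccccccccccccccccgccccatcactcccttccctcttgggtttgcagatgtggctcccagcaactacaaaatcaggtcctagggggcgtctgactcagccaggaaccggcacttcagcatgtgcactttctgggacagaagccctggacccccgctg
Fads2 (chr19:10101454-10101753, minus strand): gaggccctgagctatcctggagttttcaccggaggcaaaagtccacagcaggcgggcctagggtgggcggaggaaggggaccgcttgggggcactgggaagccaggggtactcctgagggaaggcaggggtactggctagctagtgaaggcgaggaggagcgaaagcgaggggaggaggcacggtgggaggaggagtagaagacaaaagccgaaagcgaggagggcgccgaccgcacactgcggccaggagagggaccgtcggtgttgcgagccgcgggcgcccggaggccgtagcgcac
Elovl6 (chr3:129532136-129532435, plus strand): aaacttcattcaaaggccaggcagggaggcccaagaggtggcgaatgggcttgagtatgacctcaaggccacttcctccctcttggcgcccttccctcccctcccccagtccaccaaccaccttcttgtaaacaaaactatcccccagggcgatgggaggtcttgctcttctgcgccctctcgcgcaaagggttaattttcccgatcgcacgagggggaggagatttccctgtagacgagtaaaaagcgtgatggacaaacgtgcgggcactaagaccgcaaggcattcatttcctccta
Plin2 (chr4:86670010-86670309, minus strand): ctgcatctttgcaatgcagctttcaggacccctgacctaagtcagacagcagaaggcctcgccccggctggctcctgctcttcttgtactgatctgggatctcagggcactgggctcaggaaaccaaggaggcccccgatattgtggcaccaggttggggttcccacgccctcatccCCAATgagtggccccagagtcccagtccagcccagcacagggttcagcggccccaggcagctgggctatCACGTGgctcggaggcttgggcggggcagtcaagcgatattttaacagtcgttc
Eci1 (chr17:24426433-24426732, plus strand): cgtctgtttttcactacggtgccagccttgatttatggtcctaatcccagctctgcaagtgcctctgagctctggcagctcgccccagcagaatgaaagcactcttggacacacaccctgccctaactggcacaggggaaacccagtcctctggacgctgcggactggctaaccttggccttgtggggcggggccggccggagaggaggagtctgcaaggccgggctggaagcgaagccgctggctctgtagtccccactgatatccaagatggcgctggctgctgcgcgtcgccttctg
Cpt1c (chr7:44974802-44975101, minus strand): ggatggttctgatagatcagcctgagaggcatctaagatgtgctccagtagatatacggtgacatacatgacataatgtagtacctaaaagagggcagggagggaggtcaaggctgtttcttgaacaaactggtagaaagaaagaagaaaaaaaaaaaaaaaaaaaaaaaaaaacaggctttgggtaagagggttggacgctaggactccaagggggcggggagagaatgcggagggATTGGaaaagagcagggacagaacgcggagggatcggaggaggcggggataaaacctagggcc
Lpin1 (chr12:16610917-16611216, minus strand): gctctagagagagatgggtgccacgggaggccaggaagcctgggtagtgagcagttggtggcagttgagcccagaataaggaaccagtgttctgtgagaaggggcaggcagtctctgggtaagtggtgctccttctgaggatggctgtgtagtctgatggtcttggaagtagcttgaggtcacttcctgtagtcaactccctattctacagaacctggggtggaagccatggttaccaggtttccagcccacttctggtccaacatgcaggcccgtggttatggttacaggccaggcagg

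The motifs searched were those of factors tied to lipid genes, namely the sterol regulatory element TCACNCCAC, the E-box CACGTG, the NF-Y box CCAAT and the ERR element TCAAGGTCA, on both strands. In the promoters shown no matches overlap. In the promoters above, the reverse complement of the ERR element stands in Acsl6, with an NF-Y box after it. Plin2 holds an NF-Y box and an E-box, Cpt1c holds an NF-Y box on the other strand, and Fads2, Elovl6, Eci1 and Lpin1 have no capitals. Over the 38 promoters, 1 (Acsl1) held the sterol regulatory element, against 1.24% of 32851 promoters of that length, 2 (Elovl5 and Plin2) the E-box, against 7.15%, 19 the NF-Y box, against 37.4%, and 1 (Acsl6) the ERR element, against 0.423%. A match is a run of letters in the window, and a window without one shows only that the letters are not there.

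Of the 4 synthesis genes, 3 were lower at both concentrations, where 16.8% of all genes tested were lower at 5 μM and 23.6% at 10 μM. Acly encodes ATP citrate lyase, and its libraries held 399, 396 and 387 CPM at 0 μM, 349.5, 355 and 349 CPM at 5 μM and 320.2, 332 and 315 CPM at 10 μM. The 3 groups did not overlap, and the log2 fold change was -0.17 (adjusted p = 1.71e-04, SE 0.03) at 5 μM and -0.29 (adjusted p = 1.17e-07, SE 0.03) at 10 μM (edgeR's quasi-likelihood test here and below). Acaca, the cytosolic acetyl-CoA carboxylase that makes malonyl-CoA for synthesis, had 109.7, 118 and 112 CPM at 0 μM, 96.1, 101 and 103 CPM at 5 μM and 89.6, 92.3 and 89.3 CPM at 10 μM. Its groups did not overlap either, with a log2 fold change of -0.18 (adjusted p = 0.00107, SE 0.04) at 5 μM and -0.32 (adjusted p = 9.46e-07, SE 0.04) at 10 μM. Fasn, fatty acid synthase, had 456, 449.6 and 455 CPM at 0 μM, 415, 433 and 426 CPM at 5 μM and 413, 436 and 435 CPM at 10 μM. All 6 libraries with acacetin lay below all 3 without it, but the difference was small, at -0.10 (adjusted p = 0.0155, SE 0.03) at 5 μM and -0.08 (adjusted p = 0.0229, SE 0.03) at 10 μM. Without 0 μM replicate 1 or 0 μM replicate 3, Fasn did not pass at either concentration, with adjusted p of 0.053 to 0.069. It did not pass at 5 μM without 5 μM replicate 1 (0.099) or at 10 μM without 10 μM replicate 1 (0.091). Over all alternatives the adjusted p of Fasn spanned 5.92e-04 to 0.0986 at 5 μM and 0.0101 to 0.102 at 10 μM.

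Between 10 and 5 μM, Acly and Acaca were lower again, at -0.12 (adjusted p = 0.0093, SE 0.03) and at -0.15 (adjusted p = 0.0187, SE 0.04), and Fasn gave 0.01 (adjusted p = 0.849, SE 0.03). Without 10 μM replicate 3 the adjusted p for 10 against 5 μM was 0.051 for Acly and 0.069 for Acaca, and without the libraries with liver or lung transcripts it was 0.068 for Acly and 0.13 for Acaca. That of Acaca was 0.079 without 5 μM replicate 2, 0.098 without 5 μM replicate 3 and 0.052 without 10 μM replicate 1. Over all alternatives it spanned 0.001 to 0.0684 for Acly and 0.00703 to 0.133 for Acaca. Acacb, the carboxylase at the outer mitochondrial membrane whose malonyl-CoA inhibits the carnitine shuttle, averaged 7.43 ± 0.448 CPM at 0 μM (SD, n = 3), 7.97 ± 0.132 CPM with 5 μM and 6.67 ± 0.401 CPM with 10 μM, with a 95% interval of the log2 fold change of -0.37 to 0.06 at 10 μM.

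**Figure D2:**
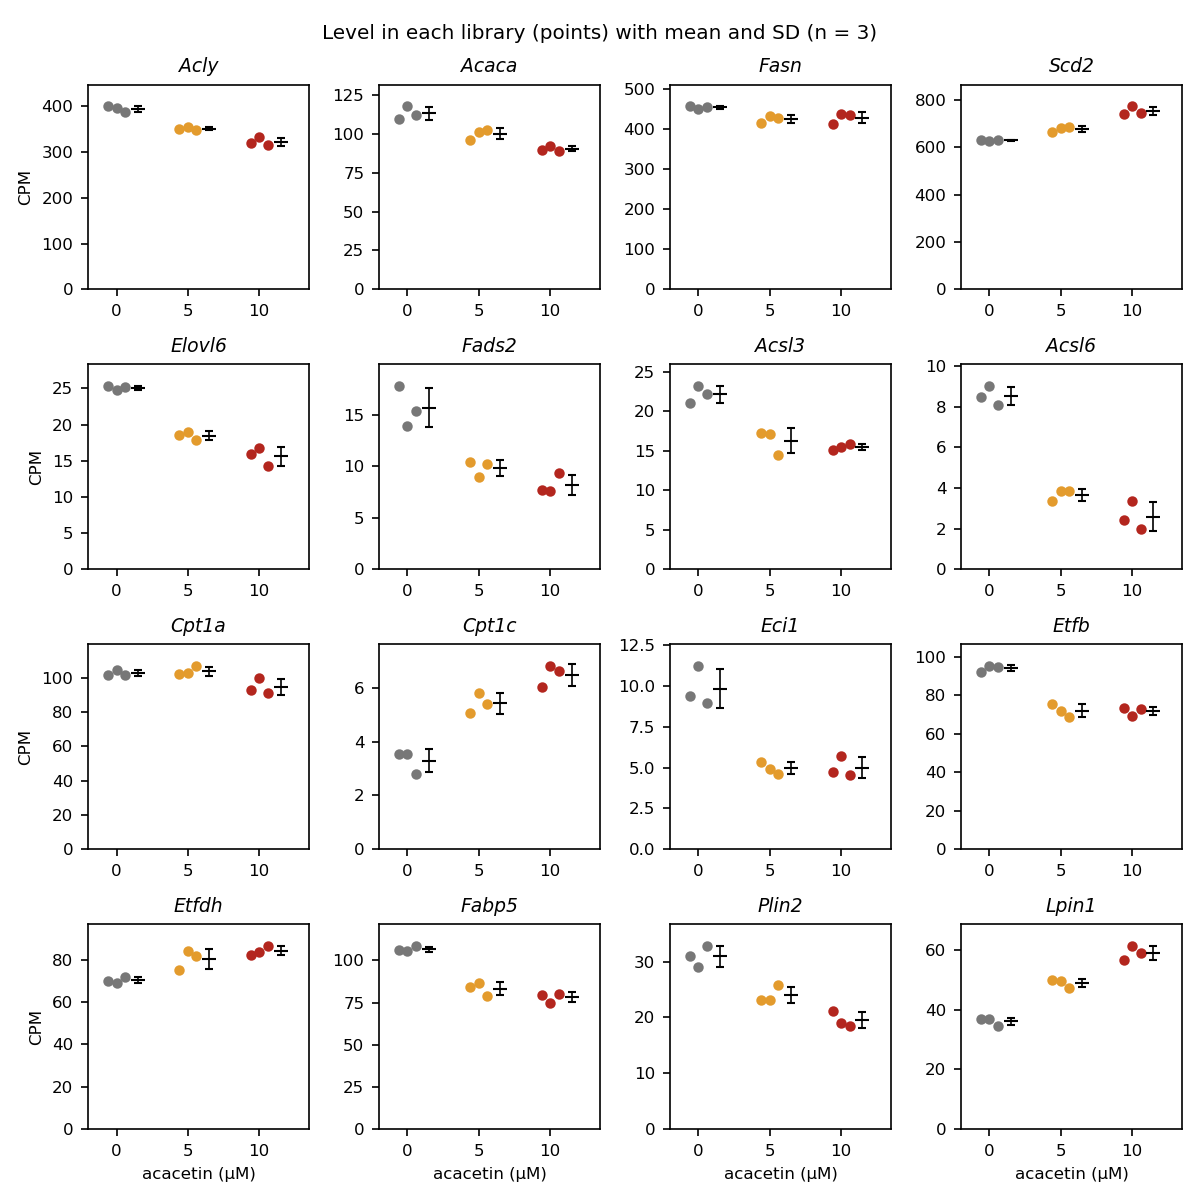
CPM of 16 of the genes in each of the 9 libraries against acacetin concentration, with the mean and SD of each group (n = 3) beside the points. Every vertical axis starts at 0. Lpin1, Cpt1c, Scd2 and Etfdh sit higher with acacetin, and the Acsl6 libraries with acacetin, 1.99 to 3.86 CPM, lie far below those at 0 μM, 8.11 to 9.01 CPM.

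Among the desaturases and elongases, Fads2 and Elovl6 fell most and Scd2 rose. Fads2 encodes the desaturase of the first step from linoleic acid to longer polyunsaturated fatty acids, and it had 17.8, 13.9 and 15.4 CPM at 0 μM, 10.4, 8.98 and 10.2 CPM at 5 μM and 7.68, 7.59 and 9.30 CPM at 10 μM. Each group with acacetin lay below the 0 μM libraries, while the 2 groups with acacetin overlapped. The log2 fold change was -0.67 (adjusted p = 5.78e-05, SE 0.10) at 5 μM and -0.93 (adjusted p = 7.92e-07, SE 0.11) at 10 μM. Elovl6, which lengthens palmitate, had 25.3, 24.7 and 25.2 CPM at 0 μM, 18.6, 19.03 and 17.8 CPM at 5 μM and 15.9, 16.8 and 14.2 CPM at 10 μM. Its 3 groups did not overlap, with -0.44 (adjusted p = 5.12e-05, SE 0.07) at 5 μM and -0.68 (adjusted p = 1.45e-07, SE 0.07) at 10 μM. Between 10 and 5 μM Elovl6 gave -0.24 (adjusted p = 0.0347, SE 0.07). This last call was lost in both DESeq2 fits (0.21 on the 2 groups alone and 0.10 on all 9 libraries) and without any 1 of 5 libraries, each of those at 5 μM and replicates 1 and 3 at 10 μM, with adjusted p of 0.056 to 0.17. Over all alternatives it spanned 0.0122 to 0.215. Fads1, the next desaturase of the polyunsaturated chain, gave -0.18 (adjusted p = 0.00676, SE 0.05) at 5 μM and -0.22 (adjusted p = 7.76e-04, SE 0.05) at 10 μM. Elovl1, which makes very long saturated chains, gave -0.13 (adjusted p = 0.0339, SE 0.04) at 5 μM and -0.18 (adjusted p = 0.0027, SE 0.05) at 10 μM, and its call at 5 μM was lost in 8 of 19 alternatives, among them leaving out 0 μM replicate 2 or 3 or any 1 of the 5 μM libraries (0.00732 to 0.183 over all alternatives). Elovl5, which lengthens polyunsaturated chains, did not pass at either concentration, with a 95% interval of -0.15 to 0.02 at 10 μM.

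Scd2, the main stearoyl-CoA desaturase of these cells, makes monounsaturated fatty acids and had 631, 628 and 633 CPM at 0 μM, 664, 683 and 688 CPM at 5 μM and 742, 773 and 747 CPM at 10 μM. The 3 groups did not overlap, and the log2 fold change was 0.10 (adjusted p = 0.00544, SE 0.03) at 5 μM, 0.26 (adjusted p = 2.61e-07, SE 0.03) at 10 μM and 0.15 (adjusted p = 0.00121, SE 0.03) for 10 against 5 μM. Scd1, the desaturase of liver and adipose tissue, was described after its values were seen, because 1 library decides its result. It had 6.03, 5.72 and 5.58 CPM at 0 μM, 4.10, 6.95 and 3.83 CPM at 5 μM and 5.02, 4.37 and 5.33 CPM at 10 μM. The 5 μM replicate 2 library, which held the liver transcripts, was the highest of all 9, and the other 2 libraries at 5 μM were the lowest. With all libraries the log2 fold change was -0.20 (adjusted p = 0.432, SE 0.18) at 5 μM. Without 5 μM replicate 2 it was -0.54, with an adjusted p of 0.014, and over all alternatives the adjusted p spanned 0.0139 to 0.892. Whether the liver transcripts bear on the Scd1 value of that library was not tested. At 10 μM the value was -0.23 (adjusted p = 0.303, SE 0.18).

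**Figure D3:**
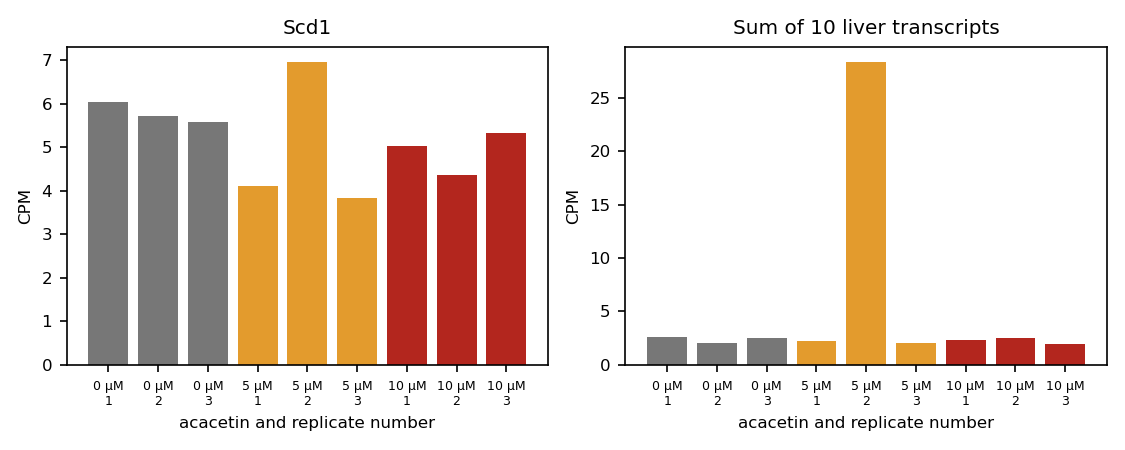
CPM of Scd1 (left) and the summed CPM of 10 liver transcripts (right) in each of the 9 libraries, grouped by acacetin concentration and replicate number. The 5 μM replicate 2 library is the highest in both, at 6.95 CPM for Scd1 and 28.3 CPM for the liver transcripts. The values of Scd1 are scaled with TMM factors and those of the liver transcripts are not.

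The acyl-CoA synthetases join long-chain fatty acids to coenzyme A before any other use, and 4 of the 5 fell at both concentrations, where 16.8% of all genes fell at 5 μM and 23.6% at 10 μM. Acsl6, best known from brain, fell most of all 40 genes. It had 8.50, 9.01 and 8.11 CPM at 0 μM, 3.34, 3.86 and 3.83 CPM at 5 μM and 2.41, 3.38 and 1.99 CPM at 10 μM. All libraries with acacetin lay below all those at 0 μM, while the 2 groups with acacetin overlapped, and the log2 fold change was -1.21 (adjusted p = 5.71e-06, SE 0.15) at 5 μM and -1.72 (adjusted p = 5.61e-08, SE 0.16) at 10 μM. Between 10 and 5 μM it gave -0.51 (adjusted p = 0.0777, SE 0.18), which did not pass. Without 10 μM replicate 2 this value was -0.75 with an adjusted p of 0.00774, the 1 case in which a gene of the 40 passed with over 1.5-fold between 10 and 5 μM, and with no filter on low counts the adjusted p was 0.0303 (0.00774 to 0.297 over all alternatives, without a value from DESeq2 on the 2 groups alone). Acsl3, a synthetase of the endoplasmic reticulum and lipid droplets, had 21.1, 23.1 and 22.1 CPM at 0 μM, 17.3, 17.1 and 14.5 CPM at 5 μM and 15.1, 15.4 and 15.9 CPM at 10 μM. Each group with acacetin lay below the 0 μM libraries, at -0.44 (adjusted p = 1.32e-04, SE 0.07) at 5 μM and -0.52 (adjusted p = 1.31e-05, SE 0.07) at 10 μM.

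Acsl4, which prefers arachidonic acid, had 111, 107 and 112 CPM at 0 μM, 98.5, 99.2 and 105 CPM at 5 μM and 94.03, 88.3 and 86.7 CPM at 10 μM. Its groups did not overlap, and the difference was -0.12 (adjusted p = 0.0186, SE 0.04) at 5 μM, -0.29 (adjusted p = 5.17e-06, SE 0.04) at 10 μM and -0.17 (adjusted p = 0.00927, SE 0.04) for 10 against 5 μM. Acsl5, found at mitochondria and the endoplasmic reticulum, had 320.5, 316 and 321 CPM at 0 μM, 301, 299 and 302 CPM at 5 μM and 271, 275 and 284 CPM at 10 μM. Its groups did not overlap, with -0.09 (adjusted p = 0.0212, SE 0.03) at 5 μM, -0.21 (adjusted p = 5.82e-06, SE 0.03) at 10 μM and -0.12 (adjusted p = 0.00951, SE 0.03) for 10 against 5 μM. Both small changes at 5 μM depended on the libraries used. With 0 μM replicate 1, 0 μM replicate 3, 5 μM replicate 1 or 5 μM replicate 2 left out, 2 of the 5 synthetases passed at 5 μM in place of 4, and Acsl4 and Acsl5 had adjusted p of 0.065 to 0.088, over all alternatives 0.00493 to 0.0877 for Acsl4 and 0.00431 to 0.08 for Acsl5. Of all genes, 25.6% to 28.2% passed with those libraries left out, against 33.1% with all libraries. Acsl4 was also lost without the libraries with liver or lung transcripts (adjusted p 0.0595), and Acsl5 without 5 μM replicate 3 (0.0543) and with scaling by library totals (0.0689). For 10 against 5 μM the count was 1 in place of 2 without 5 μM replicate 3, without 10 μM replicate 3 and without the libraries with liver or lung transcripts. There 5% to 5.84% of all genes passed, against 9% with all libraries. Acsl1, the synthetase of liver, fat and heart, had a 95% interval of -0.09 to 0.22 at 5 μM and -0.25 to 0.06 at 10 μM.

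Levels of different genes were compared per kilobase of merged exons (GENCODE vM21, joined by symbol). Acsl5 was the most abundant synthetase, with 65.6 ± 0.637 CPM per kilobase at 0 μM (SD, n = 3), followed by Acsl4 at 20.3 ± 0.465, Acsl3 at 5.08 ± 0.238, Acsl1 at 1.43 ± 0.0555 and Acsl6 at 0.861 ± 0.0453 CPM per kilobase. No neighbours in this order lay within each other's spread. The summed level of the 5 synthetases was 93.3 ± 0.935 CPM per kilobase at 0 μM (SD, n = 3), 86.1 ± 0.659 with 5 μM and 78.6 ± 0.785 with 10 μM, and Acsl5 made up 70.3%, 71.8% and 72.3% of it. The synthetase with the largest fold change was the least abundant. Scd2 stood at 115 ± 0.461 CPM per kilobase at 0 μM and Scd1 at 1.18 ± 0.0477, and Acaca at 6.62 ± 0.239 and Acacb at 0.771 ± 0.0465.

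**Figure D4:**
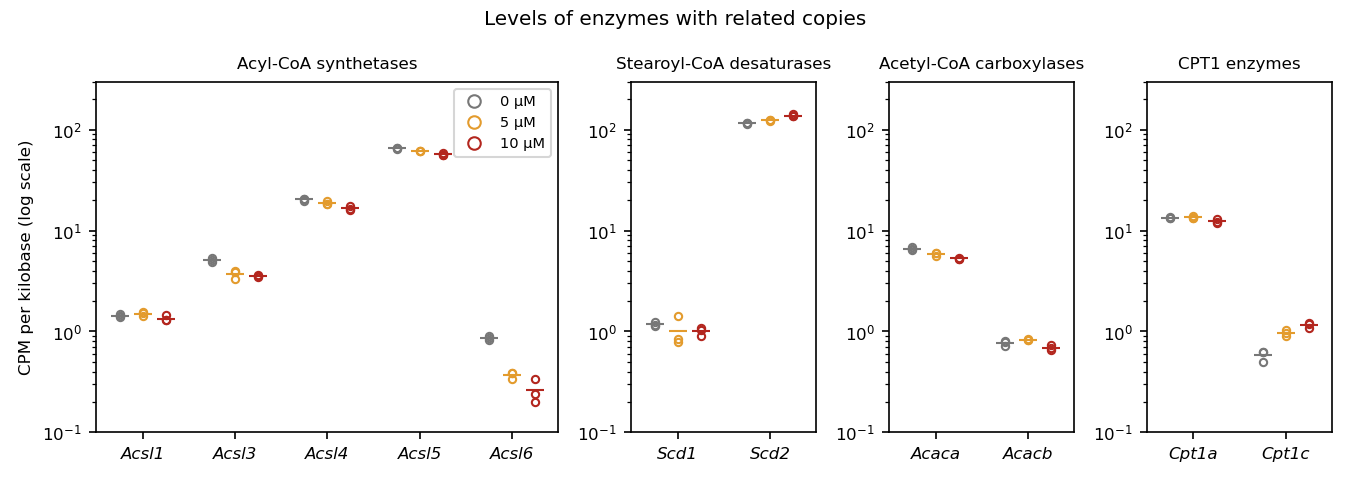
CPM per kilobase of merged exons (log scale) of the acyl-CoA synthetases, stearoyl-CoA desaturases, acetyl-CoA carboxylases and CPT1 enzymes at 0, 5 and 10 μM acacetin, with 3 libraries (circles) and their mean (dash) each. Acsl5, Scd2, Acaca and Cpt1a are the highest of their panels at every concentration.

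The carnitine shuttle carries activated fatty acids into mitochondria, and its genes did not move together. Cpt1a, the rate-limiting transferase of the outer mitochondrial membrane in lymphocytes and liver, had 101, 105 and 102 CPM at 0 μM, 102, 103 and 107 CPM at 5 μM and 92.98, 100.1 and 91.3 CPM at 10 μM. The 10 μM libraries lay below the other 6, with -0.11 (adjusted p = 0.0192, SE 0.04) against 0 μM and -0.13 (adjusted p = 0.0382, SE 0.04) against 5 μM, while 5 against 0 μM gave 0.02 (adjusted p = 0.789, SE 0.04). The call against 0 μM was lost without 0 μM replicate 2 (adjusted p 0.084), 10 μM replicate 1 (0.062) or 10 μM replicate 3 (0.095), without the libraries with liver or lung transcripts (0.079) and in the DESeq2 fit on the 2 groups alone (0.068), and that against 5 μM without any 1 library other than 10 μM replicate 2 (0.053 to 0.16). Over all alternatives the adjusted p spanned 0.0019 to 0.0949 against 0 μM and 0.00388 to 0.159 against 5 μM. Cpt1c, a relative found at the endoplasmic reticulum of neurons with little transferase activity, rose in contrast. It had 3.52, 3.53 and 2.79 CPM at 0 μM, 5.06, 5.81 and 5.39 CPM at 5 μM and 6.02, 6.80 and 6.63 CPM at 10 μM. All libraries with acacetin lay above all those at 0 μM and the 2 groups with acacetin did not overlap, with 0.73 (adjusted p = 5.29e-04, SE 0.14) at 5 μM and 0.99 (adjusted p = 1.01e-05, SE 0.14) at 10 μM. Per kilobase, Cpt1c stood at 1.16 ± 0.0732 CPM at 10 μM and 0.585 ± 0.0760 at 0 μM, and Cpt1a at 12.4 ± 0.610 and 13.4 ± 0.244. Slc25a20, the carnitine carrier of the inner membrane, and Cpt2, which returns the acyl group to coenzyme A inside, did not pass at either concentration, with 95% intervals at 10 μM of -0.08 to 0.15 and -0.19 to 0.11.

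Of the 13 genes of mitochondrial beta oxidation, 6 were lower at 5 μM and 7 at 10 μM, and the others did not pass in either direction. Over all genes tested, 16.8% were lower at 5 μM and 23.6% at 10 μM, and the share called at 10 μM in either direction was 53.8% of the 13 and 47.3% of all genes. Leaving out 1 library at a time gave 4 to 7 of the 13 at 5 μM, where 25.6% to 35.7% of all genes passed. At 10 μM it gave 5 to 8, where 40.1% to 46.3% of all genes did. Both DESeq2 fits gave 5 at 10 μM, where 36.7% and 37.7% of all genes passed. There 5 of the 13 is near the share of all genes called in either direction. The 5 were all lower, and of all genes 2241 of 12170 and 2419 of 12880 were called lower. The median log2 fold change of the 13 was -0.11 at 5 μM and -0.14 at 10 μM. Eci1 fell most. It encodes an enoyl-CoA isomerase needed for unsaturated fatty acids, and it had 9.35, 11.2 and 8.96 CPM at 0 μM, 5.34, 4.92 and 4.59 CPM at 5 μM and 4.72, 5.71 and 4.51 CPM at 10 μM. All 6 libraries with acacetin lay below all 3 without it, with -0.99 (adjusted p = 7.06e-06, SE 0.12) at 5 μM and -0.98 (adjusted p = 3.25e-06, SE 0.13) at 10 μM, and the 2 groups with acacetin overlapped, at 0.01 (adjusted p = 0.987, SE 0.14). Its relative Eci2 had a 95% interval of -0.08 to 0.10 at 10 μM. Acaa2, the thiolase of the last step, had 65.9, 70.4 and 76.6 CPM at 0 μM, 62.9, 60.6 and 62.4 CPM at 5 μM and 58.5, 56.98 and 54.02 CPM at 10 μM. The groups did not overlap, with -0.20 (adjusted p = 0.00499, SE 0.05) at 5 μM and -0.33 (adjusted p = 2.81e-05, SE 0.05) at 10 μM, and without 0 μM replicate 3 the call at 5 μM was lost at an adjusted p of 0.053 (2.35e-04 to 0.0528 over all alternatives). Hadh, the dehydrogenase of the third step for shorter chains, had 56.6, 54.4 and 55.01 CPM at 0 μM, 46.3, 49.4 and 46.8 CPM at 5 μM and 47.7, 43.98 and 45.04 CPM at 10 μM. Each group with acacetin lay below the 0 μM libraries, with -0.22 (adjusted p = 0.00121, SE 0.05) at 5 μM and -0.28 (adjusted p = 6.52e-05, SE 0.05) at 10 μM.

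The other genes of beta oxidation changed less or did not pass. Among the acyl-CoA dehydrogenases of the first step, Acadl (long chains) gave -0.22 (adjusted p = 7.7e-05, SE 0.04) at 10 μM and Acads (short chains) -0.14 (adjusted p = 0.0475, SE 0.06), whereas Acadm (medium chains) gave 0.13 (adjusted p = 0.0645, SE 0.05) and Acadvl (very long chains) 0.08 (adjusted p = 0.0804, SE 0.03), on the other side of 0. The Acads call at 10 μM was lost in 10 of 19 alternatives, among them both DESeq2 fits and leaving out any 1 of the 0 μM libraries, 5 μM replicate 2 or 3, or 10 μM replicate 3 (adjusted p 0.0149 to 0.282 over all alternatives). Acadm passed in 3 of the 19 (0.047 to 0.184) and Acadvl in 1 (0.0383 to 0.364). Exons of Dvl2 on the opposite strand cover 42.9% of the Acadvl exons in GENCODE vM21, so reads could be shared if strand was not used. Hadhb, the beta subunit of the trifunctional protein, gave -0.16 (adjusted p = 0.00151, SE 0.04), and its partner Hadha -0.06 (adjusted p = 0.12, SE 0.03). At 5 μM Hadhb gave -0.12 (adjusted p = 0.0213, SE 0.04), a call lost in 5 alternatives, without 0 μM replicate 2 or 3, 5 μM replicate 2 or 3, or the libraries with liver or lung transcripts (0.00923 to 0.13 over all alternatives). Decr1, the reductase for unsaturated chains, gave -0.09 (adjusted p = 0.493, SE 0.10) at 5 μM and -0.26 (adjusted p = 0.0347, SE 0.10) at 10 μM. The call at 10 μM was lost in both DESeq2 fits (0.10 on the 2 groups alone and 0.0779 on all 9 libraries) and without 0 μM replicate 1 (0.178), 0 μM replicate 3 (0.0634) or 10 μM replicate 2 (0.165), with 0.00923 to 0.178 over all alternatives. Echs1, the hydratase of short chains, and Acaa1a, a peroxisomal thiolase placed in this subgroup, had 95% intervals of -0.23 to 0.07 and -0.22 to 0.06 at 10 μM. Between 10 and 5 μM, 0 of the 13 passed by edgeR and 0 in both DESeq2 fits, and 1 had an unadjusted p under 0.05. Of all genes, 9% passed by edgeR, 6.48% with DESeq2 on the 2 groups alone and 9.12% with DESeq2 on all 9 libraries. With so few genes, 0 of the 13 is near those shares.

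Electrons from the first step of beta oxidation pass through electron transfer flavoprotein to its dehydrogenase in the inner membrane, and the carrier and the dehydrogenase moved in opposite directions. Etfb, the beta subunit of the flavoprotein, had 92.5, 95.2 and 94.9 CPM at 0 μM, 75.7, 71.9 and 68.97 CPM at 5 μM and 73.6, 69.3 and 72.8 CPM at 10 μM. All libraries with acacetin lay below all those at 0 μM, with -0.38 (adjusted p = 8.12e-07, SE 0.04) at 5 μM and -0.39 (adjusted p = 2.61e-07, SE 0.04) at 10 μM. Other annotated genes on the same strand cover 58.2% of the Etfb exons in GENCODE vM21, so its reads could be split with theirs. Etfa, the alpha subunit, had 85.8, 91.9 and 94.2 CPM at 0 μM, 83.2, 81.8 and 82.8 CPM at 5 μM and 82.4, 76.9 and 78.6 CPM at 10 μM. All libraries with acacetin lay below all those at 0 μM, while the 2 groups with acacetin overlapped, with -0.14 (adjusted p = 0.0146, SE 0.04) at 5 μM and -0.19 (adjusted p = 6.61e-04, SE 0.04) at 10 μM, and the call at 5 μM was lost without 0 μM replicate 2 (adjusted p 0.060), 0 μM replicate 3 (0.095) or 5 μM replicate 2 (0.062), with 0.00591 to 0.0952 over all alternatives. Etfdh, the dehydrogenase that hands the electrons to ubiquinone, had 69.9, 69.03 and 71.9 CPM at 0 μM, 75.2, 84.2 and 81.6 CPM at 5 μM and 82.1, 83.8 and 86.3 CPM at 10 μM. All libraries with acacetin lay above all those at 0 μM, with 0.19 (adjusted p = 0.00198, SE 0.04) at 5 μM and 0.26 (adjusted p = 7.4e-05, SE 0.04) at 10 μM.

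Of the storage and handling genes, Fabp5 and Plin2 fell and Lpin1 rose. Fabp5, a cytosolic fatty acid chaperone, had 106, 105 and 108 CPM at 0 μM, 84.1, 86.5 and 78.9 CPM at 5 μM and 79.6, 74.6 and 79.9 CPM at 10 μM. Each group with acacetin lay below the 0 μM libraries, with -0.36 (adjusted p = 1.79e-06, SE 0.04) at 5 μM and -0.45 (adjusted p = 3.84e-08, SE 0.04) at 10 μM. Plin2, a coat protein of lipid droplets, had 30.9, 29.1 and 32.7 CPM at 0 μM, 23.1, 23.2 and 25.7 CPM at 5 μM and 21.2, 19.1 and 18.5 CPM at 10 μM. The 3 groups did not overlap, with -0.37 (adjusted p = 3.02e-04, SE 0.07) at 5 μM, -0.66 (adjusted p = 2.71e-07, SE 0.07) at 10 μM and -0.29 (adjusted p = 0.0132, SE 0.07) for 10 against 5 μM. The last of these was lost without 5 μM replicate 3 (adjusted p 0.080), without 10 μM replicate 3 (0.074) and in the DESeq2 fit on the 2 groups alone (0.056), with 0.00115 to 0.0804 over all alternatives.

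Lpin1, the phosphatidate phosphatase lipin, which makes diacylglycerol for triglycerides and phospholipids, had the smallest adjusted p of the 40 genes at 10 μM. It had 36.8, 36.9 and 34.7 CPM at 0 μM, 49.99, 49.7 and 47.4 CPM at 5 μM and 56.8, 61.3 and 58.9 CPM at 10 μM. The 3 groups did not overlap, with 0.44 (adjusted p = 1.27e-06, SE 0.05) at 5 μM, 0.71 (adjusted p = 8.07e-10, SE 0.05) at 10 μM and 0.27 (adjusted p = 0.00104, SE 0.05) for 10 against 5 μM. Pnpla2, the triglyceride lipase that opens lipid droplets, averaged 87.8 ± 5.07 CPM at 10 μM and 83.8 ± 0.813 CPM at 0 μM (SD, n = 3), with a 95% interval of -0.02 to 0.16.

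Further genes in or near fatty acid metabolism gave a frame for the 40. Of 151 such genes in 7 lists, 120 were tested, among them 25 regulators. The lists are mixed and also hold genes of other paths, such as the sphingolipid desaturase Degs2. Of the 120, 18 were lower and 16 higher at 5 μM, with a median log2 fold change of -0.01. At 10 μM 26 were lower and 30 higher, with a median of 0.03. The share called, 28.3% at 5 μM and 46.7% at 10 μM, was near that of all genes, 33.1% and 47.3%. Without the libraries with liver or lung transcripts, 26 of the 120 passed at 5 μM and 49 at 10 μM, where 27.4% and 43.4% of all genes did. Abcd3, a peroxisomal importer of acyl-CoA, fell most, with -0.94 (adjusted p = 9.19e-12, SE 0.05) at 10 μM. Hsd17b10 and Ech1, of mitochondrial oxidation, gave -0.46 (adjusted p = 3.72e-06, SE 0.06) and -0.48 (adjusted p = 1.15e-05, SE 0.07). The peroxisomal oxidase Acox3 and reductase Decr2 rose, at 0.44 (adjusted p = 1.63e-06, SE 0.05) and 0.49 (adjusted p = 6.77e-05, SE 0.08), as did Hilpda, an inhibitor of the lipase encoded by Pnpla2, at 0.57 (adjusted p = 9.42e-06, SE 0.08). Degs2, a sphingolipid desaturase, rose over 1.5-fold but was low, at 4.27 ± 0.252 CPM at 10 μM and 1.92 ± 0.292 CPM at 0 μM (SD, n = 3).

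Among the regulators, Srebf1 encodes a sterol regulatory factor whose known targets include Acly, Acaca, Fasn, Elovl6 and Scd2, and its transcript rose with that of Scd2 while those of the other 4 fell. It had 129, 133 and 133 CPM at 0 μM, 143, 148 and 145 CPM at 5 μM and 159, 163 and 154 CPM at 10 μM. Its groups did not overlap, with 0.14 (adjusted p = 0.00206, SE 0.03) at 5 μM and 0.27 (adjusted p = 1.18e-06, SE 0.03) at 10 μM. Mbtps1, a protease that activates this factor, gave 0.25 (adjusted p = 3.89e-06, SE 0.03) at 10 μM. Insig1, which retains the factor in the endoplasmic reticulum and is also one of its targets, gave -0.21 (adjusted p = 1.07e-04, SE 0.04). The citrate carrier Slc25a1, which supplies Acly, was higher at 10 μM, at 0.24 (adjusted p = 1.01e-04, SE 0.04). Of 21 genes of cholesterol synthesis, which draws on the same cytosolic acetyl-CoA, 17 were lower at 5 μM and 18 at 10 μM, where 16.8% and 23.6% of all genes were lower, with medians of -0.30 and -0.43, and Hmgcs1 gave -0.70 (adjusted p = 3.18e-12, SE 0.03) at 10 μM. Of 23 genes of the TCA cycle, 18 were lower at 5 μM and 20 at 10 μM, beside the same shares of all genes, with medians of -0.17 and -0.21, and Suclg1 gave -0.35 (adjusted p = 5.75e-08, SE 0.03) at 10 μM.

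**Figure D5:**
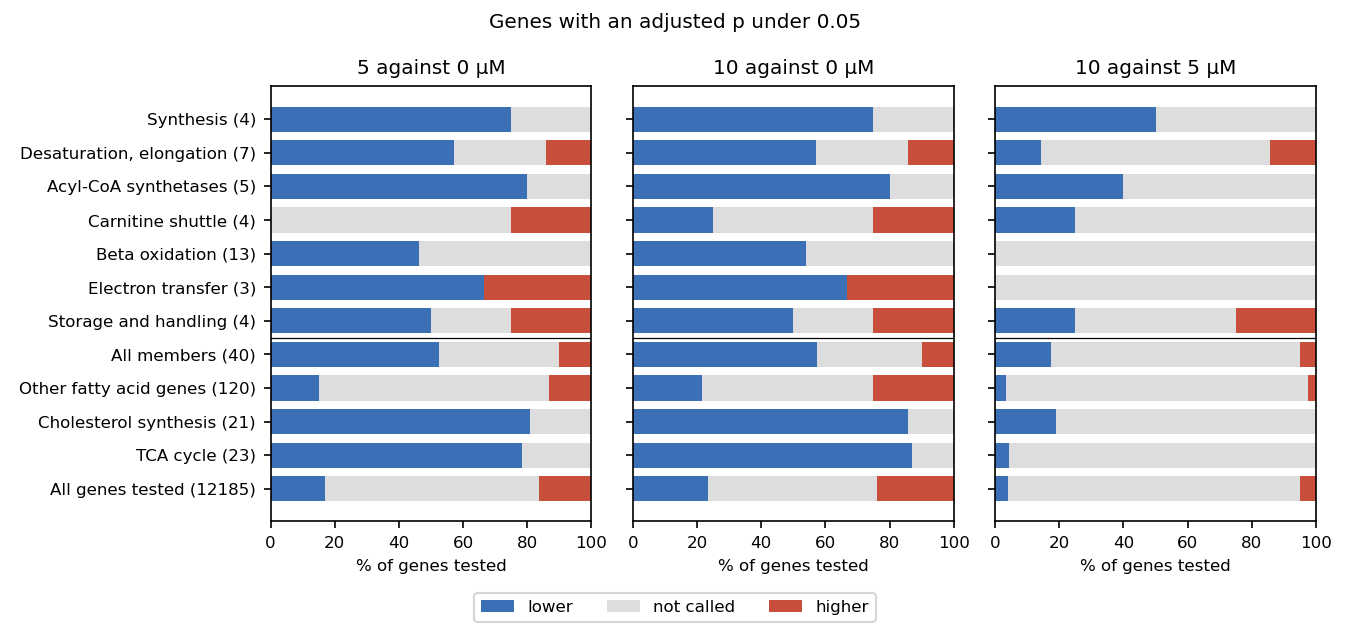
Percent of the genes tested in each group that were lower, not called or higher at an adjusted p under 0.05, for 5 against 0, 10 against 0 and 10 against 5 μM acacetin, with the number of genes in brackets. Above the line are the 7 subgroups of the 40 genes. All 40 together were lower in 57.5% at 10 μM, against 21.7% of the other fatty acid genes and 23.6% of all genes tested. The other fatty acid genes are a mixed list that includes regulators.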

How the data were processed

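RNA-seq libraries from 9 cultures (3 at each of 0, 5 and 10 μM acacetin) were analysed from the count table. The deposited values were read to be expected counts per gene, since 24.1% are not whole numbers and library totals differ, but the sources used here do not state how they were made. The authors' processing notes name GRCm39 as the genome, and the study's methods name Hisat2 and Stringtie for read quality and trimming, while no source used here states the counting tool, the annotation or whether strand was used, so reads of overlapping genes may be shared. Values were rounded, and of entries sharing a symbol the one with the most counts was used. All 9 columns were matched by title, and 0 columns were left unused.

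Genes were filtered by filterByExpr at its defaults (12185 kept), normalized by TMM and tested in R 4.3.3 with edgeR 4.0.16 (quasi-likelihood F-test, all 9 libraries in 1 fit, common BCV 3.65%), with Benjamini-Hochberg adjustment over all genes of a contrast and a threshold of 0.05. The steps were tested on simulated data. DESeq2 1.42.0, which the study's methods name, was an alternative, as were other scalings and filters, a fit on 2 groups alone, a replicate block, summed entries and leaving out libraries. Intervals are 95% and come from the fit.

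Full values are given, by rule, for the 3 called genes of each subgroup with the largest change at 10 μM, every gene over 1.5-fold and every gene called between 10 and 5 μM (21 of the 40), and of each other list for the 3 smallest adjusted p at 10 μM and any gene over 1.5-fold, of which the text names some. Scd1 was added after its values were seen. The 40 genes and all lists were chosen with earlier results of these data known, and no set test was made. GENCODE vM21 (GRCm38) gave exon lengths by symbol only, so no positions of genes are given beyond the RefSeq promoters.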

Additional observations from a re-analysis of the deposited data

How the results depend on the processing

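Over the 19 alternatives, 18 to 25 of the 40 genes were called for 5 against 0 μM, where 23.3% to 37.8% of all genes passed. For 10 against 0 μM, 24 to 28 were called, where 32.6% to 50.5% of all genes passed. Of 2543 values of named genes, 2383 kept their direction and side of the threshold, with 135 weaker, 14 stronger and 11 reversed. The values for 10 against 5 μM depended most on the settings. Of all genes, 5% to 11.9% passed for 10 against 5 μM, both over all alternatives and over leaving out 1 library at a time. The share was 6.48% with DESeq2 on the 2 groups alone and 5.51% without the libraries with liver or lung transcripts. With DESeq2 on the 2 groups alone, 5 of the 40 genes passed there, 3 of them lower, with 1 of synthesis, 1 of desaturation and elongation, 0 of the carnitine shuttle, 1 of storage and 3 of the other fatty acid genes, and for 10 against 0 μM 1 of the carnitine shuttle. DESeq2 on all 9 libraries and edgeR on the 2 groups alone each left 1 of desaturation and elongation and 0 of the carnitine shuttle for 10 against 5 μM, and no filter gave 12 other fatty acid genes. Without the libraries with liver or lung transcripts, 4 passed for 10 against 5 μM, 2 of them lower, with 0 of synthesis, 1 of desaturation and elongation, 1 of the synthetases and 0 of the carnitine shuttle, and for 10 against 0 μM 1 of the carnitine shuttle. Leaving out 1 library at a time gave, for 10 against 5 μM, 3 to 10 genes called, 1 to 8 lower, 0 to 1 over 1.5-fold, 0 to 2 of synthesis, 1 to 2 of desaturation and elongation, 1 to 3 synthetases, 0 to 1 of the carnitine shuttle, 1 to 2 of storage and 3 to 10 other fatty acid genes, for 10 against 0 μM 1 to 2 of the carnitine shuttle, and for 5 against 0 μM 2 to 4 synthetases. The 11 reversals were of values near 0. Leaving out 1 library at a time gave, for 5 against 0 μM, log2 fold changes of -0.0018 (without 5 μM replicate 3) to 0.0308 for Cpt1a, -0.0605 to 0.0040 (without 5 μM replicate 3) for Slc25a1, and -0.0562 to 0.0464 (without 5 μM replicate 1; 0.0273 without 0 μM replicate 2) for Gpam, which library totals moved to 0.0054. For 10 against 5 μM it gave -0.0065 (without 5 μM replicate 1) to 0.0366 for Fasn, also below 0 without 10 μM replicate 2 (-0.0022), and -0.104 (without 10 μM replicate 2) to 0.0741 for Eci1, also below 0 without 5 μM replicate 2 (-0.00098) or 3 (-0.0442) and with library totals (-0.0055). The cause was not tested. Same-numbered libraries had correlations of deviations of -0.0303 to 0.0871, and differently numbered ones -0.089 to 0.0416. With 3 libraries per group, these values cannot decide whether replicate numbers mark pairs. With a replicate block, 25, 27 and 9 genes passed for 5 against 0, 10 against 0 and 10 against 5 μM. Of all genes, 32.3%, 47% and 8.16% passed in that fit. The lowest count of the 40 genes was 44 per library, for Acsl6.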
